A study of Mus musculus with 6 samples.

Results

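T-box genes encode transcription factors that share a DNA-binding domain, the T-box, and 10 of them are described here in the mandibular arch of mouse embryos: Tbx1, Tbx2, Tbx3, Tbx4, Tbx5, Tbx6, Tbx15, Tbx18, Tbx20 and Tbx22. The members were chosen by gene name, and all 20 probe sets that the array's annotation assigns to 1 of these symbols alone were used, of 34958 probe sets for 18194 genes in all. A probe set is the group of short array probes whose signals are combined into 1 value for a transcript. The 2 genotypes, both on the C57BL/6 strain, were compared at stage E10.5, Tbx1-/- on 3 arrays and Tbx1+/+ on 3, all on dissected mandibular arches. Per the design text, arches of 3 embryos of a genotype were pooled to obtain enough RNA, and the labels do not settle whether each array carried a separate pool. The p-values therefore measure only the spread between these samples, which may be technical.

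The family divides into groups of close relatives. Tbx2, Tbx3, Tbx4 and Tbx5 form one group, in which Tbx2 and Tbx3 act mainly as repressors and Tbx4 and Tbx5 are activators best known from the limbs and, for Tbx5, the heart. Tbx1, Tbx15, Tbx18, Tbx20 and Tbx22 belong to another, and Tbx6 to neither. In the pharyngeal region Tbx1 is expressed in the mesodermal core and the endoderm of the arches, it is needed there for segmentation of the pharynx and for branchiomeric muscle, and its human counterpart lies in the interval deleted in 22q11.2 deletion syndrome. Tbx2 and Tbx4 are neighbours on chromosome 11 with 0 protein-coding genes between them, and so are Tbx3 and Tbx5 on chromosome 5.

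Promoter sequence shows the start sites of the gene named in the genotype and of the member with the widest spread on the labelled-null arrays. RefSeq windows were matched by symbol for 6 of the 10 members, 9 windows in all, and those of Tbx2, Tbx3, Tbx5 and Tbx15 were not used here. The lines below give the 250 bases before each annotated start in GRCm38.p6, read 5′ to 3′ along the minus strand, on which both genes lie. Capitals mark AGGTGT, the core of the element that T-box proteins bind, searched on both strands as AGGTGT and ACACCT.
Tbx1, start site farther upstream, chr16:18590672-18590921: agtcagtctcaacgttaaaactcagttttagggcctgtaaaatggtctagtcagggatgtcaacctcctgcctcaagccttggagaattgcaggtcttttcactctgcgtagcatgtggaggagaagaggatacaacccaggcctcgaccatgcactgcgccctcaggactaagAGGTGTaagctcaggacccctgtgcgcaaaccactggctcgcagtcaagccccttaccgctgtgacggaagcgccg
Tbx1, start site farther downstream, chr16:18588900-18589149: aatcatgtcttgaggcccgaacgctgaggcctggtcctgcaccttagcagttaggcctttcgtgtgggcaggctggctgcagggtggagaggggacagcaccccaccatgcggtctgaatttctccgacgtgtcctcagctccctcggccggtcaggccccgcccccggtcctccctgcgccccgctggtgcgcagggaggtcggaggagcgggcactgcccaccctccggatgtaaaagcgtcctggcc
Tbx18, chr9:87731261-87731510: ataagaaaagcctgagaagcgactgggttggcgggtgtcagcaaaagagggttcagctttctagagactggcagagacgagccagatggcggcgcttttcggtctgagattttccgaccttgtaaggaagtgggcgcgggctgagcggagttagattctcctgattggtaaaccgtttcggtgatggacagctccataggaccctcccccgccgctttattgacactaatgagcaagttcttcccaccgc

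The first Tbx1 window held 1 AGGTGT, on the strand of the gene and starting 76 bases before the start site. It was the 1 window of the 9 with a match, and 11.8% of 32851 windows of the same length in the table held the motif. The longer form AGGTGTGA, which contains AGGTGT, or its complement TCACACCT stood in 1.12% of all windows. A match describes these letters and not a bound site.

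Values are log2 expression as deposited, so a difference of 1 is a doubling, and values near 4 or below lie close to the bottom of a scale that runs from 1.95 to 15.11. Levels of different probe sets are not comparable, since each has its own probes. On the arrays labelled Tbx1-/-, called labelled-null below, replicate 3 held 343 tested probe sets that exceeded the average of the remaining arrays by more than 1, against 10 to 54 on each other array. Labelled-null replicate 1 held 143 that lay more than 1 below that average, against 13 to 50 on each other array. The summed level of the trophoblast markers, 8 of 12 being measured, was 14.54 (log2) on labelled-null replicate 3, against 9.16 to 9.49 on the rest. That list shares Hand1 with the mandibular mesenchyme list. Hand1 read 8.60 to 9.63 on the labelled-null arrays and 8.35 to 8.78 on the wild-type arrays. The brightest Xist set read 5.60 on labelled-null replicate 2 and between 10.44 and 11.55 on the others, so the labelled-null arrays do not share 1 common RNA. Markers of mandibular mesenchyme such as Hand2, Dlx5 and Prrx1, 12 of 12 measured, had summed levels of 14.82 to 14.88 on the labelled-null arrays and 14.80 to 14.89 on the wild-type arrays.

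**Figure D1:**
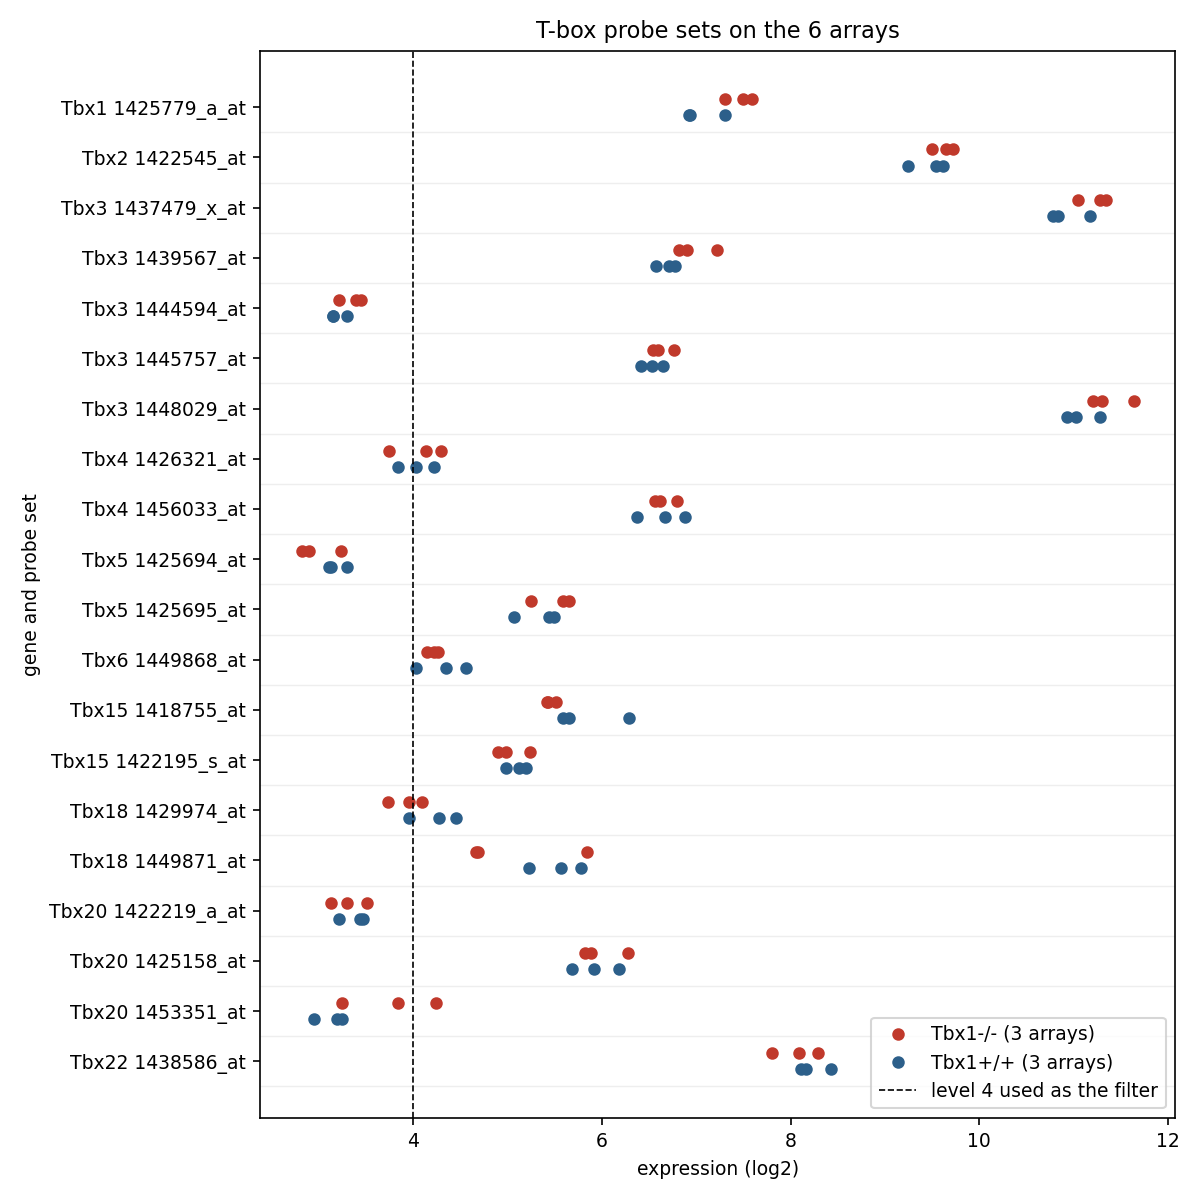
Expression (log2, horizontal) of the 20 T-box probe sets (vertical), with a point for each array, arrays labelled Tbx1-/- in red above Tbx1+/+ arrays in blue and the filter level of 4 as a dashed line. Every tested set except the dimmer sets of Tbx4 and Tbx18 lies right of the line on every array. The remaining 4 sets stay out of the test, and the genotypes overlap on most sets.

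A probe set was tested when it exceeded 4 on at least 3 of the 6 arrays, which 16 of the 20 did, as did 85.7% of all probe sets with 1 symbol. Every one of the 10 genes kept at least 1 tested set. In limma, with Benjamini-Hochberg adjustment over the 29948 probe sets tested, 0 of the 16 T-box sets passed an adjusted p of 0.05. The background was 0.00668% of all sets, that is 2 sets, for Lrrn1 and Tcf21. Omitting labelled-null replicate 3 raised that count to 20 sets, and omitting labelled-null replicate 2 to 10. It was 1 when wild-type replicate 1 or 2 was omitted and 0 in limma when wild-type replicate 3 was, where 466 sets were higher and 362 lower with an unadjusted p below 0.05. At an unadjusted p under 0.05 there were 3 T-box sets, 1 of Tbx1 and 2 of Tbx3, where 2.45% of all sets reached it. That number was 0 with labelled-null replicate 1 omitted and 1 with wild-type replicate 2 omitted. The 2 Tbx3 sets read the same transcript on the same arrays and are not separate evidence. Adjusted p was 1.00 for each of the 16 sets. The genotypes did not overlap on 2 of the 16, 1 higher and 1 lower on the labelled-null arrays, against 6.16% of all sets.

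**Figure D2:**
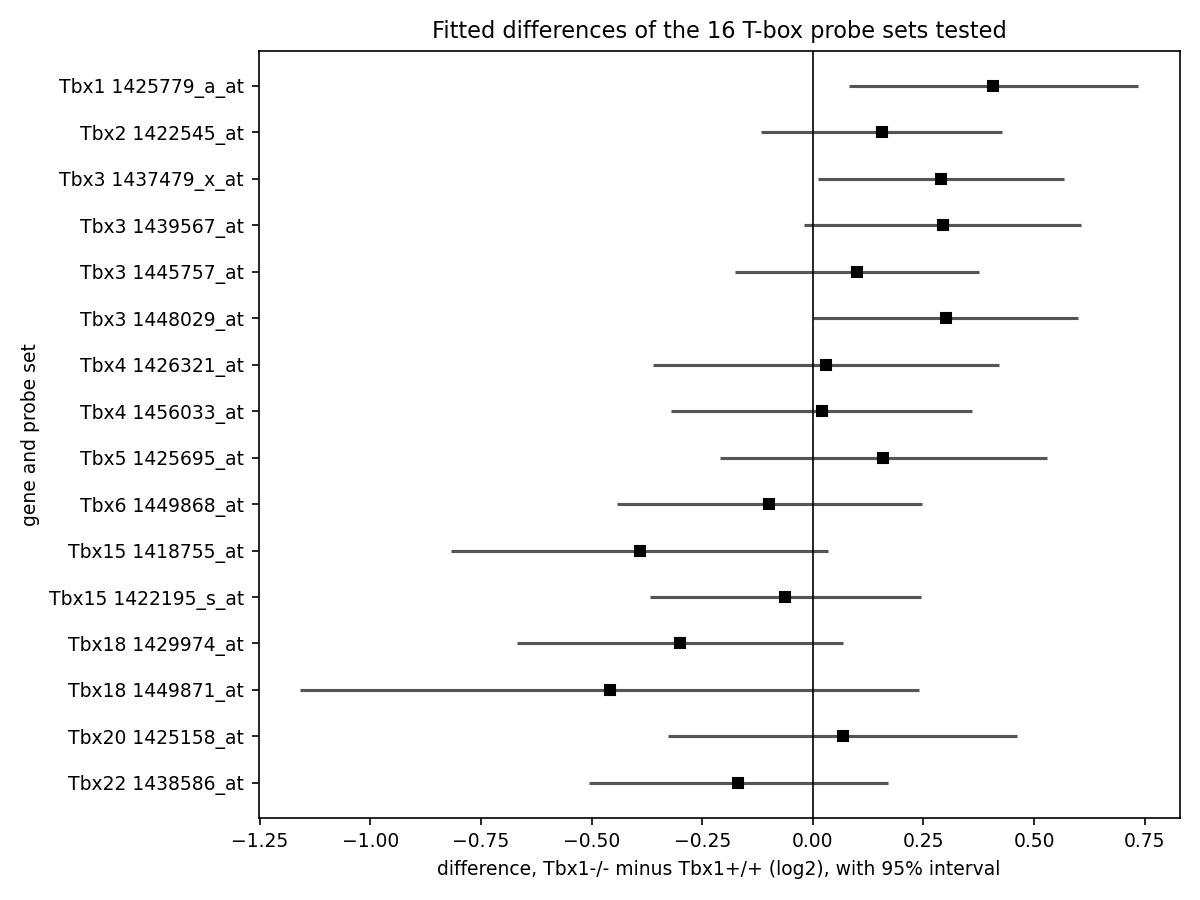
Difference between the arrays labelled Tbx1-/- and the Tbx1+/+ arrays (log2, horizontal, squares) with its 95% interval (bars) for the 16 tested probe sets (vertical). Differences lie between -0.46 for Tbx18 and 0.41 for Tbx1, and the interval of 15 of the 16 sets lies within 1 of 0.

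Tbx1 itself was read by 1 probe set (1425779_a_at), whose suffix denotes probes shared by transcript forms of 1 gene. It read 7.59, 7.50 and 7.30 on labelled-null replicates 1, 2 and 3, against 6.93, 7.31 and 6.92 on wild-type replicates 1, 2 and 3. Labelled-null replicate 3 lay just under wild-type replicate 2, so the genotypes overlapped by a narrow margin. Means were 7.46 ± 0.15 on the labelled-null arrays and 7.06 ± 0.22 on the wild-type arrays (log2, SD, n = 3 each). The difference of 0.41 (SE 0.14, 95% interval 0.08 to 0.73, 1.33-fold) had an unadjusted p of 0.0200 and an adjusted p of 1.00 in limma. Which exons the mutant allele lacks is not stated in the sources used here. This probe set may lie outside it and does not check the genotype, and all directions follow the labels. All labelled-null values lay above those of wild-type replicates 1 and 3. Leaving out 1 array moved the difference between 0.34, when wild-type replicate 3 or labelled-null replicate 1 was omitted, and 0.54, when wild-type replicate 2 was.

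Markers of the arch tissues in which Tbx1 is expressed, and of yolk sac endoderm outside the arch, did not read alike on the arrays. All 5 measured markers of the arch core mesoderm were lower on the labelled-null arrays without overlap, beside 3.26% of all tested sets. Their summed level was 7.40 to 7.72 on the labelled-null arrays and 9.05 to 9.17 on the wild-type arrays. Of these 5, Tcf21 fell past the adjusted threshold (difference -1.53, adjusted p = 0.0281 in limma), and Lhx2 differed by -1.71 and Myf5 by -2.33 without passing. Tcf21 did not pass in limma without labelled-null replicate 1 (adjusted p = 0.0535) or without any 1 wild-type array (0.181 to 0.258), nor with its probe sets averaged (0.366). Yolk sac endoderm markers, 5 of 5 measured, also had a lower summed level without overlap. It was 8.25 to 8.90 on the labelled-null arrays and 9.06 to 10.32 on the wild-type arrays. Of the 5, only Apoa1 overlapped, at 6.58 to 6.89 on the labelled-null arrays and 6.79 to 8.07 on the wild-type arrays. Among the other markers, Ttr, a thyroid hormone carrier, differed by -1.78 and Afp, a fetal serum protein, by -1.47, and neither passed. The core mesoderm and yolk sac lists were chosen with earlier results of these data known. Their counts without overlap are therefore not evidence of an excess over the 3.26% of all tested sets. The 7 measured markers of pharyngeal and oral epithelium summed to 13.05, 13.00 and 13.57 on labelled-null replicates 1, 2 and 3. On the wild-type arrays the sum was 12.75 to 12.97. Labelled-null replicate 3 is the array with high trophoblast markers. Krt8, a simple-epithelium keratin also expressed by trophoblast, read 10.78 to 12.69 on the labelled-null arrays and 10.35 to 10.79 on the wild-type arrays. Its ranges overlapped. Foxa2, an endodermal factor, differed by 0.06. In a dissected arch, fewer cells of a type and less RNA per cell cannot be told apart. The part of these tissues in the Tbx1 value was not tested.

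Genes whose levels ran most like Tbx1 over the 6 arrays, by Pearson's r among 16073 other genes, were Ednrb (r = 0.99), an endothelin receptor of the neural crest, Nab1 (r = 0.99), a corepressor of EGR factors, and Alpk3 (r = 0.99), a kinase of striated muscle. With the genotype means subtracted they were Dnase1 (r = 1.00), 3010001F23Rik (r = 0.99) and 2410022M11Rik (r = 0.99). With 6 points such values are common: 67 genes exceeded 0.9 on all arrays and 316 after the subtraction, and the lists of leading genes shared no name. These values describe the 6 arrays.

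Tbx3, a repressor that responds to BMP signals and acts in limb, mammary and cardiac development, had 5 probe sets, of which 4 were tested and all 4 had higher means on the labelled-null arrays. The brightest (1448029_at) read 11.64, 11.30 and 11.20 on labelled-null replicates 1, 2 and 3, against 11.03, 10.93 and 11.28 on the wild-type arrays. The second (1437479_x_at), whose suffix warns that probes may also match other sequences, read 11.28, 11.04 and 11.34 on the labelled-null arrays, against 10.84, 10.78 and 11.17 on the wild-type arrays. On both sets wild-type replicate 3 reached into the labelled-null range.

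A further Tbx3 set (1439567_at) read 7.22, 6.82 and 6.90 on the labelled-null arrays, against 6.78, 6.57 and 6.71 on the wild-type arrays. It was the 1 tested T-box set without overlap in the higher direction, which 2.9% of all tested sets showed. In limma these 3 sets differed by 0.30 (SE 0.13), 0.29 (SE 0.12) and 0.29 (SE 0.14), with unadjusted p-values of 0.0491, 0.0429 and 0.0625 and adjusted p-values of 1.00. The remaining tested set (1445757_at) differed by 0.10 (SE 0.12), and the set at 3.15 to 3.45 (1444594_at) was too dim to be tested. With labelled-null replicate 1 left out the 3 differences were 0.17, 0.26 and 0.17. With wild-type replicate 3 left out they were 0.40, 0.41 and 0.31. With array weights they were 0.23, 0.16 and 0.23.

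**Figure D3:**
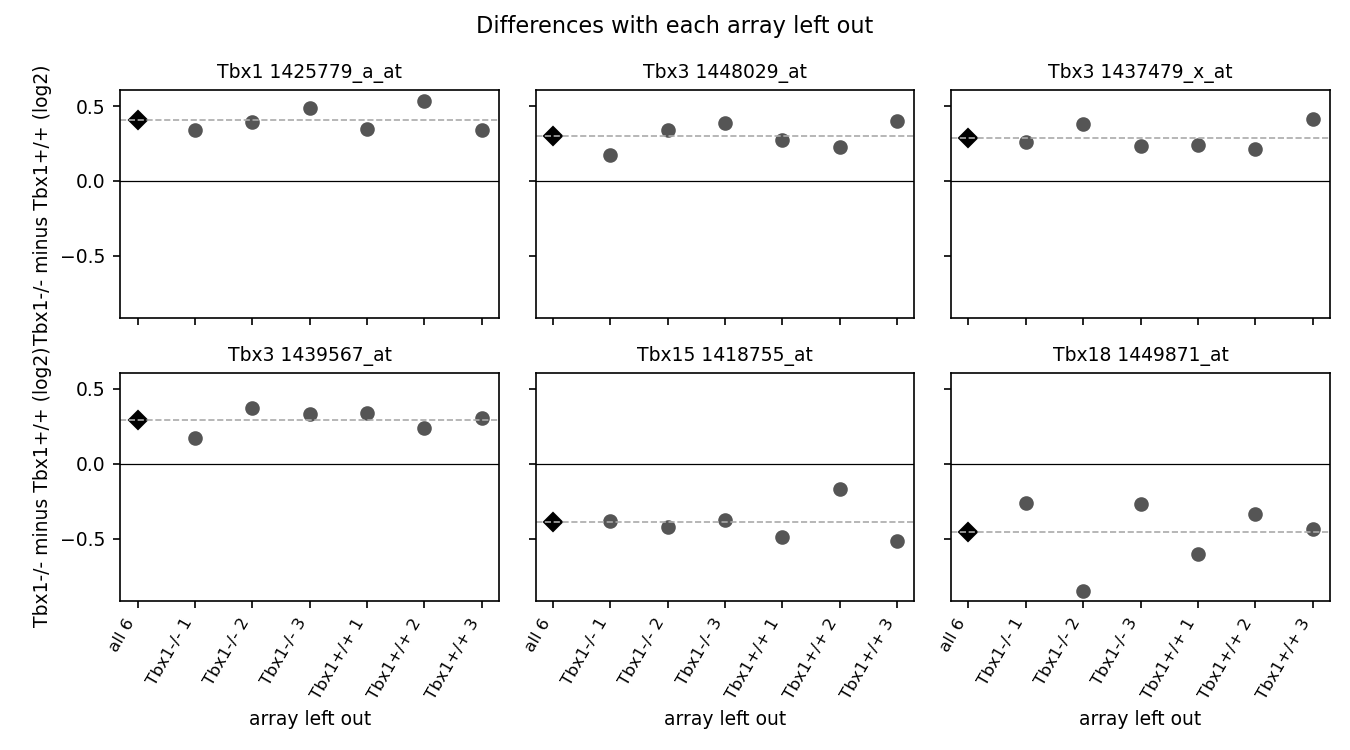
Difference between arrays labelled Tbx1-/- and Tbx1+/+ arrays (log2, vertical) with all 6 arrays (diamond and dashed line) and with each array left out (points, named on the horizontal axis), for 6 probe sets of Tbx1, Tbx3, Tbx15 and Tbx18. No point crosses 0, and the Tbx18 set moves most, to -0.85 without labelled-null replicate 2.

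Tbx2, a close relative of Tbx3 with overlapping expression in the arches, read 9.50, 9.72 and 9.64 on the labelled-null arrays (1422545_at), against 9.24, 9.55 and 9.61 on the wild-type arrays. The ranges overlapped, and the difference of 0.16 (SE 0.12, 95% interval -0.12 to 0.43) did not pass. It was 0.04 without wild-type replicate 1, the array with the lowest value.

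Tbx4, the gene next to Tbx2 and a regulator of hindlimb outgrowth, was read at 6.62, 6.79 and 6.56 on the labelled-null arrays (1456033_at), against 6.67, 6.88 and 6.38 on the wild-type arrays. Its second set (1426321_at) read 3.74 to 4.29 on the labelled-null arrays and 3.83 to 4.22 on the wild-type arrays, at the edge of the filter. The differences of 0.02 and 0.03 were smaller than their SEs of 0.15 and 0.17. The first had a 95% interval of -0.32 to 0.36.

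Tbx5, the gene next to Tbx3 and a regulator of forelimb and heart, was read at 5.65, 5.58 and 5.25 on the labelled-null arrays (1425695_at), against 5.44, 5.07 and 5.49 on the wild-type arrays. The groups overlapped and differed by 0.16 (SE 0.16, 95% interval -0.21 to 0.53). Omission of labelled-null replicate 1 or 3 gave 0.08 or 0.28, and omission of wild-type replicate 2 gave 0.03. The other Tbx5 set (1425694_at) stayed between 2.82 and 3.30 on all arrays, below the filter, and its means ran the other way by 0.19. Among limb bud markers, all 6 being measured, Hoxd13 stayed under 4 on every array, and the summed level was 10.04 to 10.29 on the labelled-null arrays and 10.17 to 10.27 on the wild-type arrays. Pitx1, at 9.68 to 9.96 on the labelled-null arrays and 9.84 to 9.96 on the wild-type arrays, made up most of that sum.

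Tbx22, mutated in human X-linked cleft palate and carried on the X chromosome, was read by 1 set (1438586_at) on every array. It read 8.09, 8.29 and 7.81 on the labelled-null arrays, against 8.43, 8.11 and 8.17 on the wild-type arrays. The ranges overlapped, and the difference of -0.17 (SE 0.15, 95% interval -0.51 to 0.17) did not pass in limma. Labelled-null replicate 2, the array with low Xist, had the highest labelled-null value. The difference was -0.04 without labelled-null replicate 3 and -0.03 with array weights.

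Tbx15, which acts in skeletal development of the limbs and skull and in the skin, was read by 2 tested sets with unequal differences. The brighter (1418755_at) read 5.43, 5.51 and 5.42 on the labelled-null arrays, against 5.65, 6.29 and 5.59 on the wild-type arrays. All labelled-null values lay below all wild-type values, as on 3.26% of all tested sets, and wild-type replicate 2 stood above the other two wild-type arrays. The difference of -0.39 (SE 0.19, 95% interval -0.82 to 0.03) had an unadjusted p of 0.0672 in limma, and was -0.17 without wild-type replicate 2. The other set (1422195_s_at), whose suffix marks probes shared between transcripts, had all wild-type values within the labelled-null range and differed by -0.06 (SE 0.13).

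Tbx18, known from the epicardium, the sinus node, the somites and the ureter, had the largest difference and the widest spread of the tested T-box sets. Its brighter set (1449871_at) read 4.67, 5.85 and 4.68 on the labelled-null arrays, against 5.23, 5.78 and 5.57 on the wild-type arrays. Labelled-null replicate 2 was the highest of all 6 arrays, while the other two labelled-null arrays lay below every wild-type array. The difference of -0.46 (SE 0.31, 95% interval -1.16 to 0.24) had an unadjusted p of 0.170. Without labelled-null replicate 2 it was -0.85 (unadjusted p = 0.00152, adjusted p = 0.890 in limma), and with array weights it was -0.14.

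The second Tbx18 set (1429974_at) did not repeat that order, with 4.10, 3.95 and 3.74 on the labelled-null arrays, against 3.96, 4.45 and 4.28 on the wild-type arrays. It differed by -0.30 (SE 0.16) and stood at the filter level. Heart muscle markers, 8 of 8 measured, summed to 7.88, 8.34 and 8.02 on the labelled-null arrays and to 8.06, 8.62 and 8.10 on the wild-type arrays, highest on replicate 2 of both genotypes. Of these, Actc1 had the widest range, at 5.30 to 6.78 on the labelled-null arrays and 6.41 to 7.69 on the wild-type arrays. The other heart markers reached at most 5.97. Epicardial markers, 4 of 4 measured, summed to 8.05, 8.32 and 7.93 on the labelled-null arrays and to 8.30, 8.59 and 7.78 on the wild-type arrays. Aldh1a2, at 7.09 to 7.56 on the labelled-null arrays and 6.81 to 8.10 on the wild-type arrays, made up most of that sum. The other epicardial markers reached at most 5.76. No marker of these lists was under 4 on every array, and their part in the Tbx18 values was not tested.

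**Figure D4:**
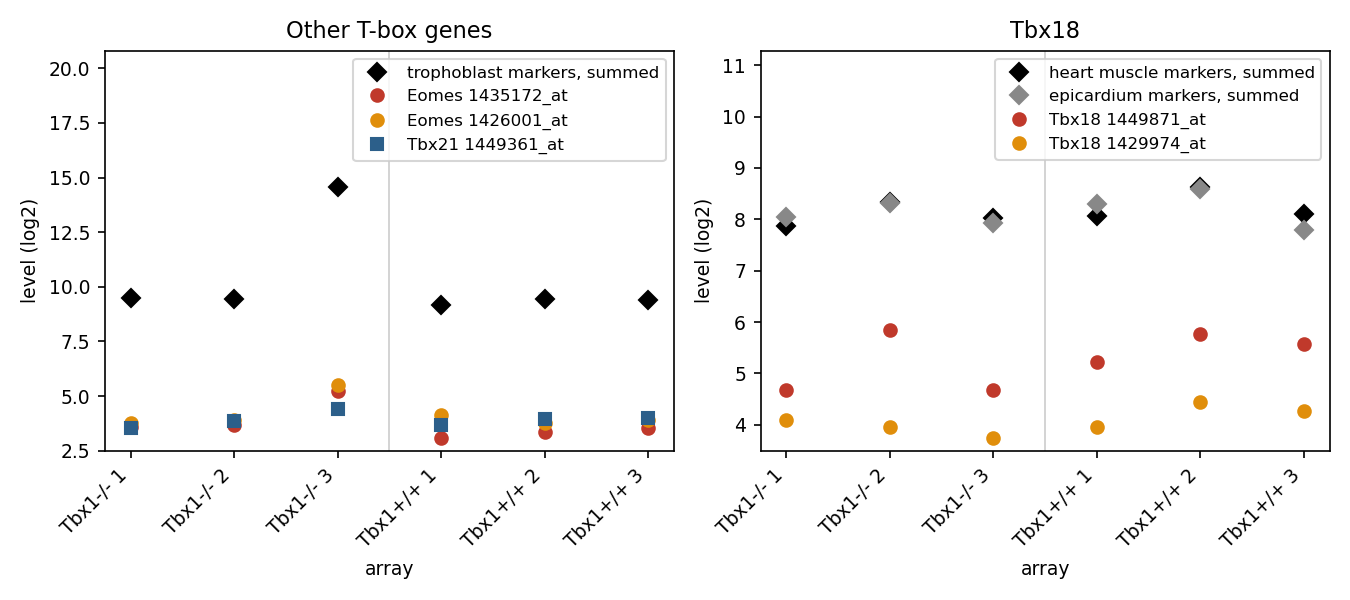
Level (log2, vertical) on each array (horizontal, arrays labelled Tbx1-/- left of the Tbx1+/+ arrays) of Eomes and Tbx21 sets beside the summed trophoblast markers (left panel) and of both Tbx18 sets beside the summed heart muscle and epicardium markers (right panel). The trophoblast sum and both Eomes sets are highest on labelled-null replicate 3, and the brighter Tbx18 set is highest on labelled-null replicate 2.

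Tbx20, a regulator of heart development and of cranial motor neurons, was read by 3 sets, of which 1 was tested. That set (1425158_at) read 5.88, 6.28 and 5.82 on the labelled-null arrays, against 5.68, 5.92 and 6.18 on the wild-type arrays, and differed by 0.07 (SE 0.17, 95% interval -0.33 to 0.46). Another set (1422219_a_at) stayed between 3.13 and 3.51. The remaining set (1453351_at) read 4.24, 3.84 and 3.25 on the labelled-null arrays, against 2.95, 3.25 and 3.19 on the wild-type arrays, exceeded 4 on 1 array only and was not tested. All its labelled-null values were higher, labelled-null replicate 3 by a margin that vanishes at 2 decimals, and its means differed by 0.64. Summed levels of the 5 measured branchiomotor neuron markers were 10.56 to 10.96 on the labelled-null arrays and 10.52 to 10.71 on the wild-type arrays. Isl1, at 10.38 to 10.84 on the labelled-null arrays and 10.34 to 10.52 on the wild-type arrays, made up most of that sum, and the other markers reached at most 6.64.

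Tbx6, which specifies paraxial mesoderm in the trunk, was close to the filter level on all arrays (1449868_at). It read 4.15, 4.26 and 4.23 on the labelled-null arrays, against 4.03, 4.56 and 4.35 on the wild-type arrays, and differed by -0.10 (SE 0.15). Of 6 markers of presomitic and somitic mesoderm, all measured, Uncx stayed under 4 on every array. The list summed to 8.21 to 8.52 on the labelled-null arrays and 8.21 to 8.56 on the wild-type arrays.

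Over the 16 tested T-box sets, 10 had higher and 6 lower means on the labelled-null arrays, and the median difference was 0.05 beside -0.01 over all tested sets. The median size of the difference, whatever its sign, was 0.16 beside 0.07 over all tested sets, a figure to which the 4 Tbx3 sets contribute together. SEs lay between 0.12 and 0.31, so the 95% intervals reached 0.27 to 0.70 to either side. The highest upper bound was 0.73, of Tbx1, and the lowest lower bound -1.16, of Tbx18.

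**Figure D5:**
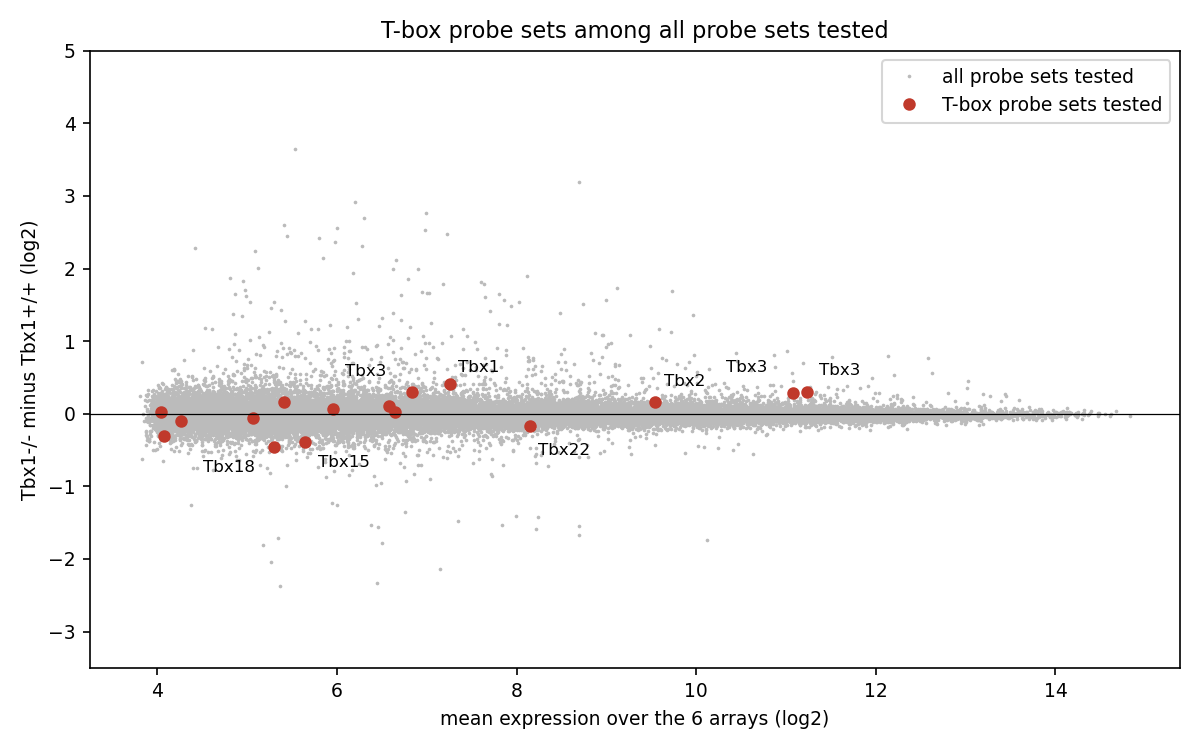
Difference between arrays labelled Tbx1-/- and Tbx1+/+ arrays (log2, vertical) against the mean over the 6 arrays (log2, horizontal) for the 29948 probe sets tested (grey) and the 16 T-box sets (red, 8 of them named). T-box sets stay between -0.46 and 0.41.

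The other T-box genes of the mouse were looked up beside the members: 5 of 7 had a probe set with 1 symbol, 11 sets in all, and T and Tbx10 were not analysed here. Mga, a large factor with a T-box and a MAX-interacting domain, was the 1 gene of them whose brightest set was tested, and that set differed by 0.07 (SE 0.11). Further tested Mga sets differed by 0.15 (SE 0.12), 0.12 (SE 0.16) and -0.11 (SE 0.20), so their directions were not alike. Tbr1 and Tbx19, known from the forebrain and the pituitary, stayed between 2.80 and 3.52 on all arrays. Eomes, which is required in trophoblast stem cells, read 3.58, 3.68 and 5.25 on the labelled-null arrays (1435172_at), against 3.06, 3.35 and 3.52 on the wild-type arrays. Its second set (1426001_at) read 3.75, 3.91 and 5.50 on the labelled-null arrays, against 4.11, 3.75 and 3.90 on the wild-type arrays. Both were highest on labelled-null replicate 3, the array with high trophoblast markers. Tbx21, a factor of T and natural killer lymphocytes, was also highest there, at 4.39 against 3.54 to 3.99 elsewhere, and the decidua markers summed to 11.39 on that array against 8.90 to 9.65. None of these Eomes and Tbx21 sets exceeded 4 on 3 arrays.

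Genes linked to Tbx1 in the pharynx were read from a list of 25 regulators, partners and targets, 21 of them tested. In limma 0 passed the adjusted threshold in either direction. An unadjusted p under 0.05 was reached by 5 of the 21, beside 2.66% of all genes read by their brightest set. The list was chosen with earlier results of these data known, so this share is not evidence of an excess. The list had 13 higher and 8 lower means, beside 7598 and 8476 over all genes, and a median difference of 0.04 beside -0.01. Foxc1, a forkhead factor placed upstream of Tbx1, read 9.63, 9.56 and 9.64 on the labelled-null arrays, against 10.10, 10.05 and 10.29 on the wild-type arrays. All labelled-null values were lower, and the difference was -0.54 (SE 0.09, adjusted p = 0.425). Foxc2, its close relative, averaged 10.36 ± 0.12 on the labelled-null arrays and 10.91 ± 0.12 on the wild-type arrays (log2, SD, n = 3 each), likewise without overlap, and differed by -0.55 (SE 0.10, adjusted p = 0.437). Both genes were named by smallest p, so their lack of overlap, beside 6.16% of all tested sets, adds no evidence. Gbx2, a homeobox factor genetically linked to Tbx1 in arch artery development, differed by -0.86 (SE 0.18, adjusted p = 0.707) and Sall1, a zinc finger factor, by 0.57 (SE 0.19, adjusted p = 1.00).

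Genes linked to Tbx2 and Tbx3 comprised BMP regulators and targets of repression, 12 of 14 tested. In limma 0 passed, and 0 reached an unadjusted p of 0.05, beside 2.66% of all genes. The means of 10 were higher and of 2 lower on the labelled-null arrays, beside 7598 and 8476 over all genes. The median difference was 0.06 beside -0.01. This list too was chosen with earlier results of these data known, so its direction count is not evidence of a shift. Mycn, a MYC family factor that Tbx2 represses in the heart, read 12.65, 12.44 and 12.49 on the labelled-null arrays, against 12.38, 12.08 and 12.43 on the wild-type arrays, and differed by 0.22 (SE 0.10). Bmp2, a ligand that induces Tbx2 in the heart, differed by 0.27 (SE 0.19), Msx2, a BMP-responsive homeobox factor, by 0.12 (SE 0.10), and Gja1, a gap junction gene repressed by Tbx2, by 0.08 (SE 0.06). Single arrays moved these values: Mycn was 0.12 without wild-type replicate 2, Msx2 0.06 without labelled-null replicate 3, and Gja1 0.04 without labelled-null replicate 2. Bmp2 was 0.41 with labelled-null replicate 3 omitted, and omission of wild-type replicate 2 or 3 gave 0.45 or 0.14. With each gene's probe sets averaged, the difference was 0.15 for Mycn, 0.02 for Gja1, 0.14 for Msx2 and 0.27 for Bmp2.

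Genes linked to Tbx15, Tbx18 and Tbx22 in mesenchyme and palate were 10, of which 9 were tested. In limma 0 passed, and 2 of the 9 reached an unadjusted p of 0.05, beside the 2.66% of all genes. That list too was chosen with earlier results known, and its share is not evidence of an excess. Sim2, a bHLH-PAS factor, differed by -0.92 (SE 0.26) and Alx4, a homeobox factor of craniofacial mesenchyme, by 0.32 (SE 0.14), in both cases without overlap between genotypes. The genotypes did not overlap on 6.16% of all tested sets. Both genes were named by smallest p, so their lack of overlap adds no evidence. Shox2, a homeobox factor of palate and sinus node, averaged 8.39 ± 0.53 on the labelled-null arrays and 8.90 ± 0.60 on the wild-type arrays (log2, SD, n = 3 each), and differed by -0.51 (SE 0.33). That difference was -0.08 with array weights. Among the labelled-null arrays, omitting replicate 2 gave -0.81 and omitting replicate 3 gave -0.32. Among the wild-type arrays, omitting replicate 1 gave -0.31 and omitting replicate 3 gave -0.85. Like the brighter Tbx18 set it was highest on replicate 2 among the labelled-null arrays. Wt1, an epicardial and mesothelial factor, differed by 0.20 (SE 0.13).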

How the data were processed

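The files hold deposited log2 values, 1 per probe set, of Affymetrix whole-genome mouse expression arrays, made with GCRMA per the submitters' processing notes, its version being not given in the sources used here. The log2 scale was read from the values. GCRMA corrects background by probe sequence and normalizes between arrays, so a shift common to most genes is removed and differences near the background are compressed. Array medians lay between 6.08 and 6.15. Of 45101 probe sets, 34958 had 1 gene symbol in the platform annotation, and matching by gene ID to a reference table of mouse genes changed 0 symbols.

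Probe sets above 4 on at least 3 arrays were fitted together on genotype with limma 3.58.1 in R 4.3.3 (lmFit, and eBayes with an intensity trend), adjusted by Benjamini-Hochberg over all 29948 tested. Probe sets rather than genes were fitted because all sets of each gene were wanted. On 20 simulated data sets of that size, each with 200 changed sets, the fit called 71.5% of sets changed by 1 and 96.2% of sets changed by 2. The simulated noise was independent between arrays, and the real data gave 2 calls. These shares therefore need not hold for a T-box change of 1 here. Summed marker levels are log2 sums of unlogged values over each gene's brightest set. Linked genes are named by smallest p, up to 4 a list. The members and lists were chosen with earlier results of these data known. Promoter sequence is RefSeq's, build GRCm38.p6, and the array files name no build.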

Additional observations from a re-analysis of the deposited data

How the results depend on the processing

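No T-box probe set passed the adjusted threshold in limma under any of 11 other settings or with any 1 of the 6 arrays left out, the sets at an unadjusted p under 0.05 numbering 0 to 6. Over all probe sets the count past the threshold was 2. It was 6 with the brightest set per gene, 4 with arrays centred on their medians, 6 with robust eBayes and 4 with array weights. With the mean of a gene's sets 0 genes passed, and 246 genes were higher and 231 lower by unadjusted p. Leaving out 1 array gave 0 to 20 sets, the 20 without labelled-null replicate 3. The count was 0 without wild-type replicate 3, with 466 sets higher and 362 lower by unadjusted p. Replicate numbers 1 to 3 recur in the titles of both genotypes, with nothing said of their meaning. Deviations of same-numbered arrays correlated at 0.318, 0.0915 and 0.163, and those of other-numbered arrays at -0.252 to 0.129. Each labelled-null array correlated most with the wild-type array of its own number. The main fit did not pair the samples, and whether the numbers mark a shared step was not tested. With the replicate block 14 sets passed and 0 of them T-box, the smallest adjusted p being 0.759 for a Tbx3 set. Tbx5 differed by -0.017 with the mean of its sets and the second Tbx15 set by 0.0510 with array weights, against 0.16 and -0.06. With 1 array left out the direction turned for 6 T-box sets: the Tbx4 sets ranged from -0.0902 to 0.186 and from -0.112 to 0.138, Tbx6 from -0.240 to 0.0265, the second Tbx15 set from -0.163 to 0.00936 the tested Tbx20 set from -0.0742 to 0.194 and an untested Tbx20 set (1422219_a_at) from -0.158 to 0.0303. The linked gene Mga ranged from -0.0108 to 0.152. The cause of these changes was not tested. Signal near 4 limits Tbx6, the dimmer Tbx4 and Tbx18 sets and the 4 sets not tested.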
